A study of Mus musculus with 2 samples.

Results

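The 300 spots described here are positions on a spatially barcoded array under 1 section of mouse skull roof, chosen because they were rich in transcripts of Tnmd, Sfrp2, Capn6, Thbs2, Angptl1, Aspn and Itgbl1. They lie in the section named Blank. Barcodes with at least 3667 unique molecular identifiers (UMIs, each standing for 1 captured transcript) were kept, which left 2249 of the section's 4992 barcodes. The kept spots were ranked by the summed UMIs of the 7 genes over all UMIs of the spot, and the first 300 were taken, out of 9984 barcodes in both sections. The other 1949 kept Blank spots are called the remaining spots. The ranking used these same counts, so the levels in the chosen spots are a description, and no gene of these spots is tested.

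In the study, defects made in the calvarial bone, which forms the roof of the skull, were filled with a collagen/nHA material (Col_nHA) or left without it (Blank), and the bone was taken 7 days later, frozen in embedding medium and cut into sections. Each group is 1 section of calvarial bone from a mouse whose strain and age are not given in the sources used here. No value therefore has a spread between animals, and no p-value is given. A spot is a small area that can hold several cells of different types, and spot positions were not used, so nothing is said of where a spot lay or which cell held a transcript.

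Tenomodulin, encoded by Tnmd, is a membrane glycoprotein best known from tendons and ligaments, where the transcription factors scleraxis (Scx) and Mohawk (Mkx) govern the collagen-making cells. Sfrp2 encodes a secreted protein of the frizzled-related family that binds Wnt ligands and is made by fibroblasts of dermis, fascia and healing wounds. The skull roof is covered by periosteum and by a fibrous sheet that joins the scalp muscles, and a healing defect adds collagen-rich granulation tissue to these layers.

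The spots were proposed as tendon-like and fascia-like, and the data matched that name only in part. Among 25 genes of the tendon lineage and its matrix, 22 were counted, meaning that they had at least 10 counts per 1000000 UMIs (CPM) in one or both groups of spots, and 3 of these were at least 2-fold higher in the chosen spots and 5 at least 2-fold lower. Over all counted genes, 0.448% were 2-fold higher and 7.69% 2-fold lower, so the tendon list held more of both. Among 22 genes of fascia and of the fibroblasts found in most tissues, 18 were counted, none was 2-fold higher, 4 were at least 2-fold lower, and 17 of 18 lay below the remaining spots. Of all counted genes, 28.8% lay above them. The count of lower fascia genes moved with the choices made, from 10 in a ranking without Sfrp2 to 2 with TMM scaling and 1 inside a single cluster, and that of lower tendon genes from 7 to 2. The spots are called Tnmd- and Sfrp2-rich spots here.

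The first 3 genes below are shown with the sequence around their start sites because they supplied most of the UMIs that ranked the spots, or, for Tnmd, gave the spots their name. Each line gives 250 bases before and 50 bases after the annotated start, 5′ to 3′ on the gene's strand, from RefSeq on GRCm38.p6, with capitals marking CANNTG, the E-box core read by basic helix-loop-helix factors such as scleraxis.
Tnmd, chrX:133850758-133851057, plus strand: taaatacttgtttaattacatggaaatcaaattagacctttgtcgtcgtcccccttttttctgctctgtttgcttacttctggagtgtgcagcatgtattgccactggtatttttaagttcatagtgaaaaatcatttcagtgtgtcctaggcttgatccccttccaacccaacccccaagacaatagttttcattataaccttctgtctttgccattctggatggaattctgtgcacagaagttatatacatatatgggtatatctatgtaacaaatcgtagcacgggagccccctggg
Sfrp2, chr3:83766071-83766370, plus strand: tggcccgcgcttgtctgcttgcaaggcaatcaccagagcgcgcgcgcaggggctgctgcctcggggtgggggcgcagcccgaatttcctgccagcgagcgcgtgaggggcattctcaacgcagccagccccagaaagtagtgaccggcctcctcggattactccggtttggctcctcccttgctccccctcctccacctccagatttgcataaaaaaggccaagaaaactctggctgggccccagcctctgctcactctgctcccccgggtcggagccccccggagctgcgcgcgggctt
Thbs2, chr17:14694213-14694512, minus strand: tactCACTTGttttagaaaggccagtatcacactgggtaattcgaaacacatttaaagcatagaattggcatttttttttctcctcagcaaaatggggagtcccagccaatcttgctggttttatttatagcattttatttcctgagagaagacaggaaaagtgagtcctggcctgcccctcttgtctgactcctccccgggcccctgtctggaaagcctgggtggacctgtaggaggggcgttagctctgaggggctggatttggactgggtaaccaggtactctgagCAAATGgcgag
The Tnmd and Sfrp2 windows held 0 matches to CANNTG on either strand, and the Thbs2 window held 2. Of 32851 promoter windows of the same length, 72.3% held 1 or more matches. Among the other ranking genes, Capn6 and Itgbl1 had 3 matches each, Aspn 2 and Angptl1 1. The TATA box core TATAAA was found in the windows of Thbs2 and Aspn, against 13.6% of all windows, and CCAAT in those of Capn6, Thbs2, Aspn and Itgbl1, against 37.4%. Both strands were searched. A match is a run of letters and not a shown binding site, and no motif searched was present in all 7 windows.

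The 7 genes made up 3.02% of the UMIs of the first-ranked spot and 0.675% of those of spot 300. The last 10 spots inside the cutoff had shares of 0.675% to 0.680%, and the first 10 outside had 0.664% to 0.673%. The edge of the group is thus a point on a continuous slope and marks no gap. The chosen spots were deeper than the remaining ones, with a median of 15804.5 UMIs and 4252 genes against 9209 UMIs and 3307 genes. Their totals ran from 3766 to 62603 UMIs, and those of the remaining spots from 3667 to 82267. Mitochondrial transcripts made up 2.91% of UMIs in the chosen and 3.84% in the remaining spots, and ribosomal protein transcripts 15.1% and 12.2%. The part of depth in the results was not tested.

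Sfrp2 supplied 49.2% of the 7 genes' UMIs in the chosen spots. It was found in all 300, at 10 to 481 UMIs per spot with a median of 66. Its level was 4999 CPM over the chosen spots and 987 CPM over the remaining ones, a ratio of 5.07 (4.98 to 5.15). Values in parentheses after a ratio are exact 95% intervals, which cover counting error only. Of the chosen spots, the lowest held 1088 CPM and the highest 23121 CPM, and the highest remaining spot held 5186 CPM, so the groups overlapped.

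Thbs2, which encodes thrombospondin 2, a matricellular protein that affects collagen fibril assembly, gave another 26.3% of the ranking UMIs. Every chosen spot held it, at 2 to 242 UMIs with a median of 31, and its level was 2674 CPM against 899 CPM (ratio 2.97, 2.91 to 3.04). Aspn encodes asporin, a small leucine-rich protein that binds collagen. It was at 1076 CPM against 609.5 CPM, a ratio of 1.765 (1.71 to 1.82), which makes it the ranking gene that differed least. It was missing from 4 of the 300 spots, and its highest value, 2930 CPM, lay below the highest remaining spot at 3244 CPM.

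Tnmd was counted at 0 to 43 UMIs per chosen spot with a median of 5, and was seen in 270 of 300 spots. Its level was 512 CPM in the chosen and 144 CPM in the remaining spots, a ratio of 3.57 (3.40 to 3.75). The chosen spots thus include 30 in which no Tnmd transcript was counted. Itgbl1, which encodes a secreted protein with integrin-beta-like repeats, stood at 520 CPM against 219 CPM (2.37, 2.27 to 2.48) and was seen in 289 spots. Capn6, a calpain relative that lacks protease activity and binds microtubules, stood at 254 CPM against 102 CPM (2.499, 2.34 to 2.67) and was seen in 253. Angptl1, a secreted angiopoietin-like factor, stood at 120 CPM against 54.1 CPM (2.22, 2.02 to 2.44) and was seen in 209.

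**Figure D1:**
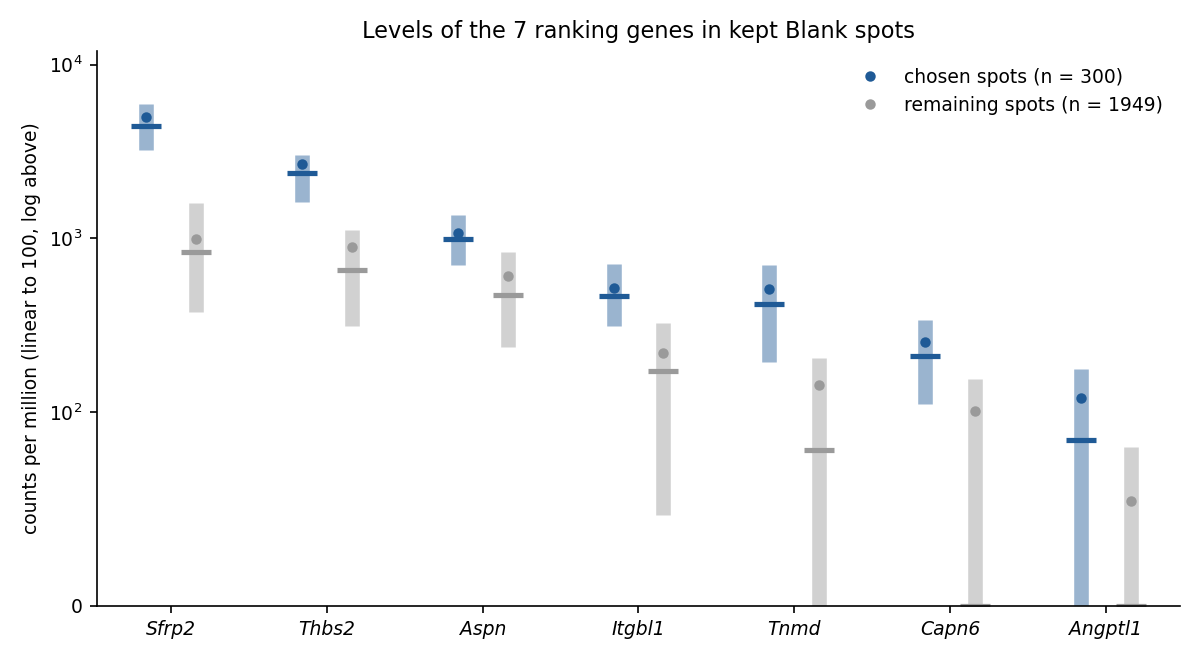
CPM of the 7 ranking genes in the 300 chosen and the 1949 remaining Blank spots, on an axis that is linear to 100 and logarithmic above. Circles are the level over all spots of a group, dashes the median spot and bars the range from the 25th to the 75th percentile of spots; for Sfrp2 and Thbs2 the bars of the groups do not meet, while for the other 5 genes they do.

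Shares of spots with a transcript depend on depth, so each spot was also thinned to 2000 UMIs. Tnmd was then seen in 57% of the chosen spots (51.2% to 62.7%) and in 21.1% of the remaining ones (19.3% to 23.0%). Without thinning the shares were 90% and 58.9%. The 732 Blank barcodes below the minimum that could be thinned showed Tnmd in 26.8%, which lies above the remaining spots and below the chosen ones, and those barcodes may lie off the tissue. Thbs2 was seen in 96.3% of chosen, 67.9% of remaining and 78.1% of the below-minimum barcodes, and Sfrp2 in 100%, 74.2% and 85.4%. By these shares the remaining spots lay below those barcodes. The chosen spots had to lie high, since these genes ranked them.

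Each ranking gene was next read in spots ranked without it, which takes its own counts out of the choice. All 7 were still higher in the 300 spots that the other 6 genes chose. This was favoured from the start, since the 7 genes were picked together with earlier results of these data known. Over the kept Blank spots every pair of them rose together. The Spearman correlations ran from 0.11 for Angptl1 with Itgbl1 to 0.54 for Thbs2 with Aspn. The ratios below are therefore a description and no independent support for the set. Sfrp2 stood at 3886 CPM against 1129 CPM, a ratio of 3.44 (3.38 to 3.50), down from 5.07. Tnmd had a ratio of 3.32 (3.16 to 3.49), close to its value in the full ranking. The others ran from 1.62 (1.57 to 1.67) for Aspn to 2.72 (2.66 to 2.77) for Thbs2. Leaving out Sfrp2 changed the spots most, with 213 of 300 kept, and leaving out Angptl1 least, with 296 kept. Spots ranked by 1 gene alone shared 231 of 300 with the full ranking for Sfrp2, 192 for Thbs2, 159 for Tnmd and 82 for Angptl1.

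**Figure D2:**
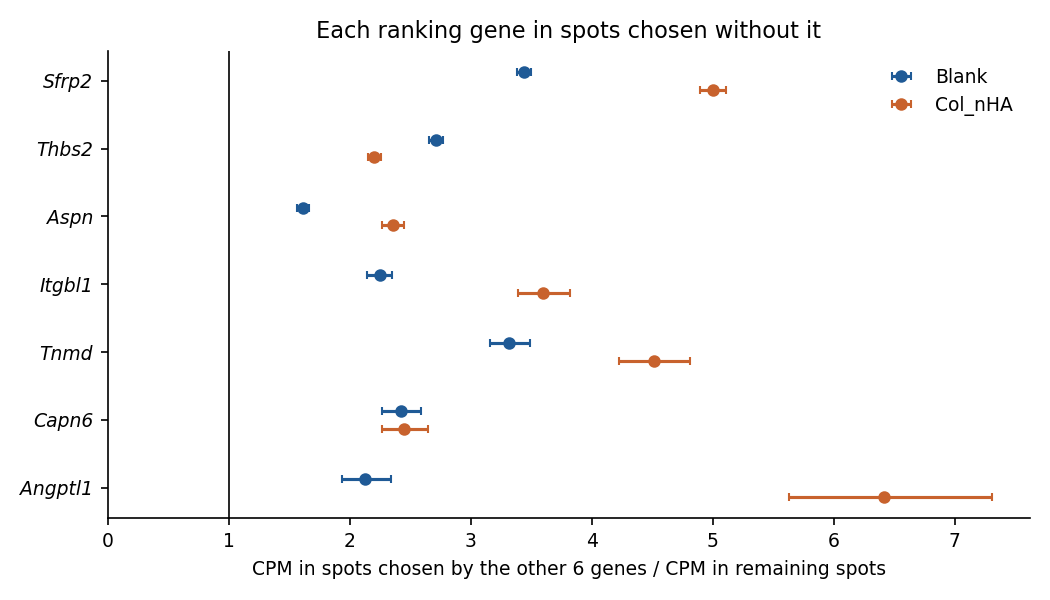
For each ranking gene, the ratio of its CPM in the 300 spots chosen by the other 6 genes to its CPM in the remaining kept spots, in Blank and in Col_nHA, with exact 95% counting intervals. All points lie right of 1, from 1.62 for Aspn to 3.44 for Sfrp2 in Blank. The genes were picked together with earlier results of these data known, so the ratios are a description.

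The 7 genes did not vary as 1 block inside the chosen spots. Across the 300 spots, the Spearman correlation of CPM was 0.50 for Tnmd with Thbs2 and 0.24 for Tnmd with Sfrp2. It was -0.41 for Sfrp2 with Aspn and -0.22 for Tnmd with Aspn, whereas over all 2249 kept spots the same pairs stood at 0.43 and 0.29. Spots of 1 section share a library, and a fixed minimum on the sum of 7 shares pushes their correlation inside the chosen group downwards. The first 300 spots by Tnmd alone and by Sfrp2 alone had 130 spots in common (43.3% of each), and those by Aspn alone and Sfrp2 alone had 57 (19% of each). The base share for 300 of 2249 spots is 13.3%.

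Over all genes, the chosen spots differed more by what they lacked than by what they held. Of 9831 genes counted, the 7 ranking genes left out, 44 were at least 2-fold higher (0.448%) and 756 were at least 2-fold lower (7.69%). The median log2 ratio of all counted genes was -0.16, and 28.8% of genes lay above a ratio of 1. Under edgeR's TMM scaling all log2 ratios move up by 0.19, which gives 94 higher and 598 lower genes, so a log2 value within 0.2 of 0 has no direction here.

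Among genes with at least 50 CPM other than the 7 ranking genes, the highest ratio was that of Crispld2, which encodes a secreted protein with a CAP domain. It was counted in 240 of 300 chosen spots at up to 59 UMIs with a median of 3, and its level was 246 CPM against 83.0 CPM (2.96, 2.76 to 3.17). Col12a1, which encodes the fibril-associated collagen XII of tendon, ligament and periosteum, followed at 2989 CPM against 1138 CPM (2.63, 2.58 to 2.68). It was in every chosen spot, at 122 to 6391 CPM with a median of 2568 CPM, while the median remaining spot held 825 CPM and the highest 4056 CPM. The median chosen spot thus lay above the 75th percentile of the remaining spots, 1455 CPM, and the groups overlapped in their tails.

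The other genes in this group encode secreted, membrane and nuclear proteins. Egfl6, a secreted epidermal growth factor-like matrix protein, stood at 67.8 CPM against 27.4 CPM (2.48, 2.18 to 2.81). Serpine2, an inhibitor of thrombin and plasminogen activators, stood at 500 CPM against 221 CPM (2.27, 2.16 to 2.37). Dkk3, of the Dickkopf family, stood at 223 CPM against 110 CPM (2.03, 1.89 to 2.17). Between 2.47 and 2.001 lay also Megf6, the receptor phosphatase gene Ptprd, the ephrin receptor gene Epha3, the amino acid transporter gene Slc38a4, Spats2l, Auts2, Mn1, Zic4 (a zinc-finger transcription factor) and Tnn, which encodes tenascin N, a glycoprotein of periosteum and bone. Pde3a, a cyclic nucleotide phosphodiesterase gene, was at 2.53 (2.18 to 2.93). They were present in the remaining spots as well. Tnn, for example, was counted in 80% of chosen and 43.6% of remaining spots.

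Of the factors that govern tendon cells, Mkx was 3.21-fold higher (2.70 to 3.83), at 40.2 CPM against 12.5 CPM. It was counted in 122 of 300 chosen spots at no more than 6 UMIs each, and in 13.3% of the remaining spots. After thinning to 2000 UMIs it was seen in 7% of chosen, 2.21% of remaining and 2.73% of below-minimum barcodes. Scx stood at 22.4 CPM against 17.3 CPM, a ratio of 1.29 (1.05 to 1.58), and at equal depth it was seen in 4% of chosen, 3.64% of remaining and 2.60% of below-minimum barcodes. Mkx was thus over 2-fold higher in the chosen spots, while the interval of Scx stayed below 2-fold.

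The tendon list held matrix and signalling genes on both sides. Besides Mkx and Col12a1, the potassium channel gene Kcnk2 was 2-fold higher, at 17.0 CPM against 7.28 CPM. The 5 members at least 2-fold lower were the mechanically and injury-induced factors Egr1 (0.48) and Egr2 (0.30), thrombospondin 4 (Thbs4, 0.39), the cartilage intermediate layer protein gene Cilp (0.22) and lubricin (Prg4, 0.48). Fmod, which encodes fibromodulin of tendon collagen, stood at 1.33, the protease gene Htra1 at 1.46 and the matrix protein gene Abi3bp at 1.87. Tnc, which encodes tenascin C, stood at 0.82. The median log2 ratio of the 22 counted members was 0.25, against -0.16 over all genes. The chosen spots shared 129 of 300 (43%) with the spots richest in this list.

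The fascia list lay lower. Pi16, the peptidase inhibitor gene that marks these fibroblasts, was at 127 CPM against 236 CPM (0.54), Dpt (dermatopontin) at 241 CPM against 408 CPM (0.59) and Clec3b (tetranectin) at 56.7 CPM against 122 CPM (0.47). Pi16 was counted in 102 chosen spots and ran up to 3902 CPM, so a minority of chosen spots held much of it. Nov, which encodes the matricellular protein CCN3, was the only counted member above the remaining spots, at 215 CPM against 126 CPM (1.70). The median log2 ratio was -0.58, and 35 of 300 spots (11.7%) were also among the richest in this list, near the base share of 13.3%.

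No gene of the collagen matrix lists passed 2-fold, though most lay above the remaining spots. Of 15 counted collagens, 13 lay above the remaining spots and none was 2-fold higher, with a median log2 ratio of 0.52. Among all counted genes, 28.8% lay above a ratio of 1. Only 0.448% were at least 2-fold higher, so the lack of such genes in these short lists says little. Col1a1 and Col1a2, the chains of collagen I, stood at 41980 CPM and 37405 CPM in the chosen spots, 1.44 and 1.51 times the remaining level, and Col3a1 at 1.46. Col15a1, a basement membrane collagen, was at 0.50 and Col5a3 at 0.74. Of 18 counted genes of collagen folding and cross-linking, 15 lay above, led by P4ha3 at 1.53 and Sparc at 1.52, with lysyl oxidase (Lox) at 1.45. The chosen spots shared 44.3% with the spots richest in collagens.

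The small leucine-rich proteoglycans, which coat collagen fibrils, had a median log2 ratio of 0.40 over 9 counted members, none past 2-fold. Ogn (osteoglycin) was at 650 CPM against 338 CPM (1.92) and Lum (lumican) at 2958 CPM against 1795 CPM (1.65). Bgn and Dcn, biglycan and decorin, stood at 1.32 and 1.38. Omd, osteomodulin of mineralised tissue, was at 0.63. The elastic fibre genes split, with 4 of 13 at least 2-fold lower and none higher, against 7.69% lower and 0.448% higher over all counted genes. Elastin itself, Eln, was at 362 CPM against 1380 CPM (0.26, 0.25 to 0.27), and Ltbp1, Ltbp2 and Ltbp4, which encode binding proteins of latent TGF-beta, stood at 0.44, 0.49 and 0.35. The fibrillin gene Fbn2 was at 1.84.

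Of 13 counted genes of wound fibroblasts and myofibroblasts, 8 lay above a ratio of 1 and none passed 2-fold, with a median log2 ratio of 0.52. Cthrc1, a secreted collagen triple-helix repeat protein, was at 1.83, Lrrc15 at 1.63, smooth muscle actin (Acta2) at 1.52, fibronectin (Fn1) at 1.55 and periostin (Postn) at 1.195, while the inhibitor gene Timp1 was at 0.70, the ion channel gene Piezo2 at 0.65 and Ddah1 at 0.88. Of 15 counted genes of skeletal progenitors and periosteum, only the homeobox gene Msx2 was 2-fold higher (2.24), and the related factor gene Prrx1 was at 489 CPM against 252 CPM (1.94, 1.85 to 2.03). Twist2 was at 0.48 and the chemokine gene Cxcl12 at 0.32. The 10 counted cell division genes all lay below the remaining spots, with a median log2 ratio of -0.59, from 0.51 for Mki67 to 0.82 for Tpx2. Of all counted genes, 28.8% lay above a ratio of 1 and 0.448% were at least 2-fold higher, with a median log2 ratio of -0.16.

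Few Wnt modulators besides Sfrp2 were abundant enough to count. Of 13 other secreted Wnt modulators, 4 reached 10 CPM, of which Dkk3 was 2-fold higher, Sfrp4 (0.26) and Sostdc1 (0.18) were at least 2-fold lower and Sfrp1 was at 0.90. Of 18 counted TGF-beta and BMP genes, none was 2-fold higher, and Bmp5 and Bmp7 were lower from few counts, at 2.33 CPM and 2.69 CPM in the chosen spots. Among 9 counted relatives of Thbs2, Angptl1 and Capn6, none passed 2-fold in either direction, and Thbs1 stood at 1.497. The shares over all counted genes were 0.448% at least 2-fold higher and 7.69% at least 2-fold lower.

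Of 9 counted genes of meningeal fibroblasts, 5 were at least 2-fold lower and 1 lay above the remaining spots. Over all counted genes, 7.69% were at least 2-fold lower, 0.448% at least 2-fold higher and 28.8% above a ratio of 1. Markers of muscle, skin, fat and choroid plexus were all lower. All 13 counted skeletal muscle genes, all 11 skin genes, all 8 fat genes and all 7 choroid plexus genes were lower by 2-fold or more, and the lists' median log2 ratios were -3.92, -3.71, -3.90 and -2.89. Summed, the muscle genes made 584 CPM in the chosen and 7782 CPM in the remaining spots, and the skin genes 207 CPM and 3034 CPM. The genes with the lowest ratios were of that kind, such as the sebaceous lipid genes Elovl3 (0.029) and Fa2h (0.036) and the fast muscle myosin Myh4 (0.042). Without spots holding over 2% of UMIs in the muscle, fat, skin, nerve and choroid plexus lists, which removed 8 chosen and left 1285 remaining spots, 30 genes were 2-fold higher and 429 lower, with Col12a1 at a log2 ratio of 1.12 in place of 1.39. Of 14 counted macrophage genes none passed 2-fold, and Lyz2, lysozyme, was at 1.55. Of 11 counted endothelial genes 1 lay above the remaining spots, with a median log2 ratio of -0.73. The part of these other tissues and cells in the results was not tested beyond that alternative.

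To see what else the spots had in common, all kept Blank spots were clustered on their other genes, with the 7 ranking genes left out, which gave 15 clusters. The chosen spots were concentrated in 1 of them, with 199 of 300 (66.3%) in cluster 1, whose 523 spots were led by Tnn, Hmox1, Actg2, Lrrc15, Acta2 and Tagln. Another 33 lay in cluster 2 (led by Adm, Cxcl9, Clec3b, Dlk1, Dpp4 and Cxcl10), 21 in cluster 7 (led by the osteocalcin genes Bglap2 and Bglap), 19 in cluster 5 (led by Saa3, C3 and Rsad2) and 16 in cluster 13 (led by Chrna3, Crx, Rbp3 and Neurod1). The last 12 were spread over clusters 3, 6, 12 and 15. Clusters 4, 8, 9, 10, 11 and 14, which include those led by keratinised skin, muscle, sebaceous and fat genes, held 0. The chosen spots made up 38.0% of cluster 1 and 23.5% of cluster 13, so no cluster consisted of them.

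The chosen spots of cluster 1 held Tnmd, Mkx and collagen XII transcripts, which were not particular to them. Their Tnmd level was 573 CPM, with a median spot at 537 CPM, and 191 of 199 spots held it. Col12a1 stood at 3387 CPM there, Thbs2 at 2977 CPM and Mkx at 44.4 CPM, and Pi16 at only 13.96 CPM. Acta2, Myl9 and Serpine2 were over 2-fold higher than in the chosen spots elsewhere. The rest of cluster 1 held Acta2 at 1100 CPM, above the 856 CPM of its chosen spots, and Myl9 at 410 CPM, near their 415.5 CPM, whereas Serpine2 was at 330 CPM there and 567 CPM in the chosen spots.

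The 33 chosen spots of cluster 2 were of another make. Pi16 reached 1182 CPM (1077 to 1295) with 32 of 33 spots positive, whereas Tnmd was at 112 CPM (81.6 to 151), with 19 of 33 positive, and Mkx rested on 4 UMIs. The fascia list made up 1.18% of their UMIs, against 0.224% in the other chosen spots. The rest of cluster 2 held this list at 0.917%, so it was largely a feature of the cluster. Pi16 stood at 611 CPM there and Dpt at 1179 CPM, against 1389 CPM of Dpt in the 33 chosen spots. Sfrp2 was at 4469 CPM, near its level in cluster 1, and Aspn at 1333 CPM. The genes that led these 33 spots over the other chosen ones were those of regenerating muscle, such as the myogenic factor gene Myog at 81.7 CPM and the embryonic myosin gene Myh3 at 94.5 CPM. The rest of cluster 2 held similar levels of both, 63.4 and 126 CPM, so these are features of the cluster.

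In cluster 7 the chosen spots held osteocalcin, Bglap, at 5094 CPM, below the 9113 CPM of the rest of that cluster, together with Tnmd at 470 CPM and Sfrp2 at 6103 CPM. In cluster 5, Tnmd was at 180 CPM, Mkx rested on 1 UMI, and Itgbl1 at 852 CPM and Capn6 at 414 CPM were higher than in the other chosen spots. In cluster 13, Tnmd was at 513 CPM, Mkx at 76.2 CPM (42.6 to 126, from 15 UMIs) and Col12a1 at 2701 CPM. Tnmd was thus near 500 CPM in the chosen spots of clusters 1, 7 and 13 and under 200 CPM in those of clusters 2 and 5, with intervals that did not meet, while Sfrp2 lay between 4469 and 6103 CPM in all 5. Sfrp2 was also the gene that weighed most in the ranking.

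**Figure D3:**
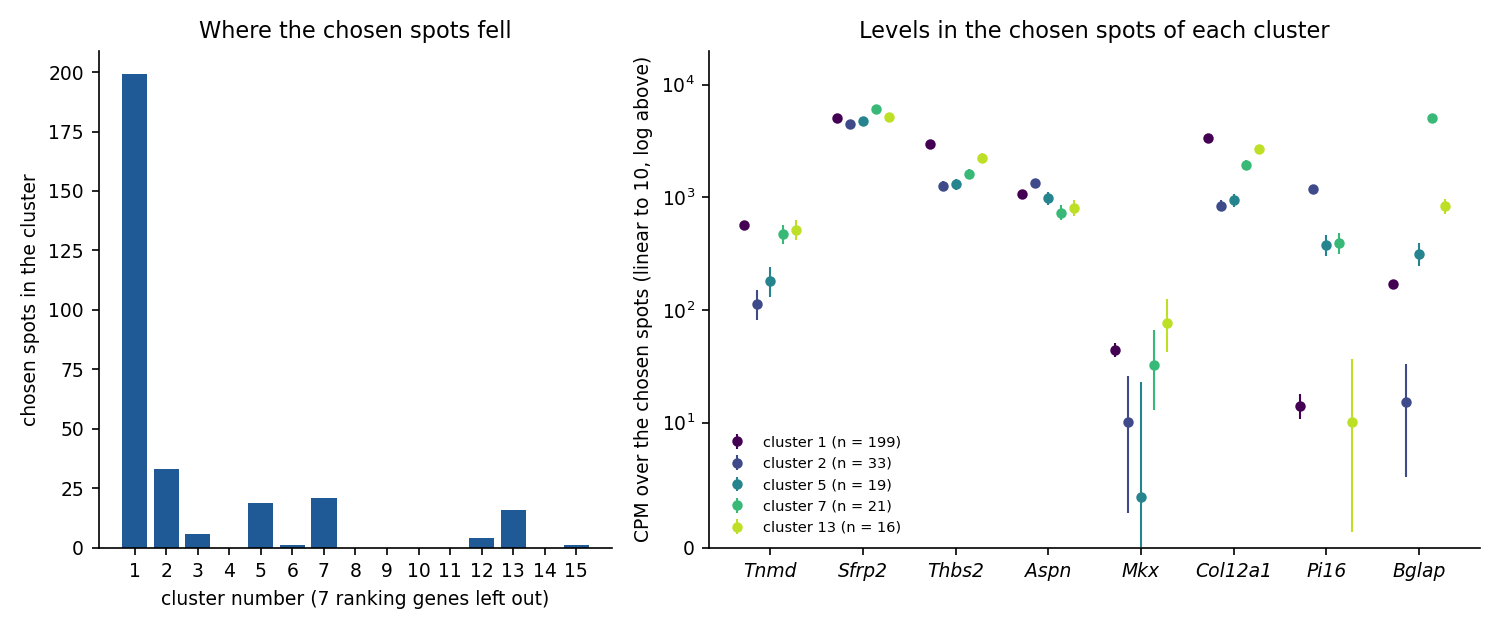
Left, the number of chosen Blank spots in each of the 15 clusters, 199 of them in cluster 1. Right, CPM over the chosen spots of the 5 clusters that held at least 15 of them, on an axis linear to 10 and logarithmic above, with exact 95% counting intervals; Pi16 is highest in cluster 2, Bglap in cluster 7, and Tnmd is lowest in clusters 2 and 5.

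Since the remaining spots include other tissues, the 199 chosen spots of cluster 1 were also set against the 324 other spots of that cluster, a comparison added after the clusters were seen. Of 9097 genes counted, 55 were at least 2-fold higher (0.605%) and 68 at least 2-fold lower (0.747%). Over all of them the median log2 ratio was -0.05. The chosen spots were deeper here as well, with a median of 19238 against 12491 UMIs. Sfrp2 differed by 3.97-fold and Tnmd by 1.995-fold (1.87 to 2.12), and Aspn hardly, at 1081 CPM against 1041 CPM.

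Of the genes higher inside cluster 1 that reached 50 CPM, Cpxm2, which encodes a carboxypeptidase-like protein, was highest, at 217 CPM against 70.3 CPM (3.08, 2.74 to 3.47), and Egfl6 at 60.9 CPM against 19.8 CPM (3.07). Matn4 (matrilin 4), Prelp (a leucine-rich proteoglycan of cartilage, tendon and basement membranes), the glypican gene Gpc3 and the growth factor binding protein gene Igfbp2 stood at 2.93, 2.60, 2.55 and 2.40. Smoc2, Nov and Crispld2 stood between 2.12 and 2.17. Mkx kept a 2-fold difference, with 44.4 CPM against 20 CPM. Scx, below 2-fold over the whole section as well, stood at 24.7 CPM against 26.9 CPM. Of 19 counted tendon list members, 1 was at least 2-fold higher and 2 at least 2-fold lower. The shares over all genes counted there were 0.605% and 0.747%. Col12a1 was at 3387 CPM against 1958 CPM, a log2 difference of 0.79.

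The genes lower in the chosen spots of cluster 1 included other matrix genes, among them Tnc of the tendon list. Tnc, tenascin C, was at 503 CPM against 1141 CPM (0.44, 0.42 to 0.46), Col5a3 at 215 CPM against 495 CPM (0.43), Eln at 195 CPM against 412 CPM (0.47) and the anchoring fibril collagen Col7a1 at 99.1 CPM against 201 CPM (0.49). The retinoic acid binding protein gene Crabp1 was at 69.4 CPM against 157 CPM. All 10 counted cell division genes lay below the other spots of the cluster, 2 of them by at least 2-fold, with a median log2 ratio of -0.75. Of all 9097 genes counted there, 3798 lay above a ratio of 1 and 0.747% were at least 2-fold lower. The wound fibroblast list, above the remaining spots over the whole section, had a median of -0.36 here, with 4 of 13 above a ratio of 1, so its side depended on the spots compared.

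**Figure D4:**
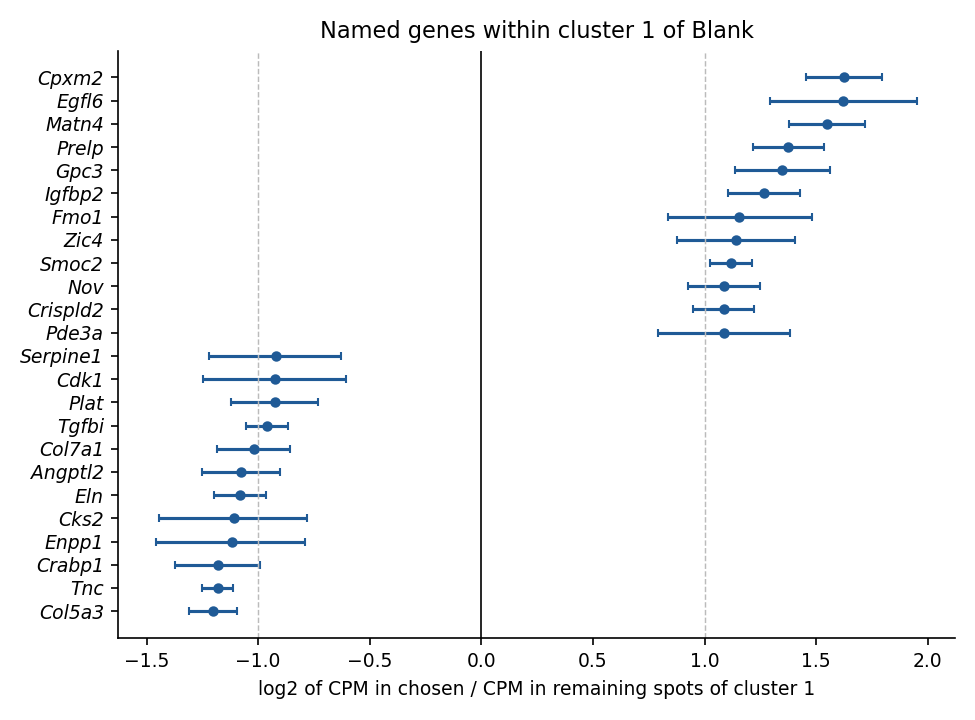
log2 ratio of CPM in the 199 chosen over the 324 other spots of cluster 1, for the 12 highest and 12 lowest genes with at least 50 CPM, with exact 95% counting intervals and dashed lines at 2-fold. Cpxm2, Egfl6 and Matn4 are highest and Col5a3, Tnc and Crabp1 lowest.

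The same ranking in the Col_nHA section, above that section's own minimum of 4688 UMIs, took 300 of 2471 spots. The 7 genes were lower there in absolute level, in the chosen spots of Col_nHA over those of Blank by 0.59 (0.55 to 0.62) for Tnmd, 0.73 for Sfrp2 and 0.70 for Thbs2. Tnmd stood at 301 CPM and was seen in 220 of 300 spots, and Sfrp2 at 3666 CPM. Against the remaining spots of Col_nHA the ratios were 4.85 (4.54 to 5.17) for Tnmd, 9.63 for Sfrp2 and 7.12 (6.25 to 8.11) for Angptl1, while Thbs2 had a smaller ratio than in Blank, 2.74 (2.68 to 2.81). In spots chosen by the other 6 genes, the ratios were 4.51 for Tnmd and 4.999 for Sfrp2. Each section is 1 library, so these values compare libraries.

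In Col_nHA, 147 of 9630 counted genes were at least 2-fold higher in the chosen spots (1.53%) and 384 at least 2-fold lower (3.99%), and 41.9% lay above a ratio of 1. There were 14 genes 2-fold higher in both sections, which is 31.8% of the 44 in Blank and 9.52% of the 147 in Col_nHA. Besides 1 unnamed transcript these were Mkx, Crispld2, Egfl6, Megf6, Ptprd, Dkk3, Auts2, Kcnk2, the aquaporin gene Aqp5, the transcription regulator genes Meis2, Eya4 and Mab21l1, and Rflna. Of the 33 Blank genes that were counted in Col_nHA, 31 lay on the same side there. Mkx was at 21.6 CPM against 7.91 CPM (2.73, 2.18 to 3.40), and Egfl6 at 64.9 CPM against 6.64 CPM (9.77, 8.25 to 11.6). Tnn stood at 142 CPM against 159 CPM (0.89) in Col_nHA. It is given no direction there, as the shift under another scaling was not computed for that section.

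The fascia genes parted the sections. In Col_nHA, 6 of 16 counted members were at least 2-fold higher, none was 2-fold lower and 13 lay above a ratio of 1, with a median log2 ratio of 0.79, against -0.58 in Blank. The shares over all counted genes of Col_nHA were 1.53% higher by 2-fold, 3.99% lower by 2-fold and 41.9% above a ratio of 1. Pi16 was at 192 CPM against 49.4 CPM (3.90), Dpt at 276 CPM against 75.9 CPM (3.63), Clec3b at 62.7 CPM against 15.8 CPM and Nov at 231 CPM against 41.3 CPM (5.60). In the chosen spots themselves the levels were nearer to each other, with 127 CPM of Pi16 for Blank and 192 CPM for Col_nHA, and 241 and 276 CPM of Dpt. The remaining spots differed more, with 236 CPM of Pi16 for Blank and 49.4 CPM for Col_nHA. A difference between the sections was not tested, since each is 1 library.

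Of 22 counted tendon genes in Col_nHA, 7 were at least 2-fold higher and 2 lower, with Kera (keratocan) at 5.20, Col14a1 at 2.82 and Col12a1, at 2460 CPM against 1230 CPM, on the threshold. Of 9 counted leucine-rich proteoglycans 6 were 2-fold higher, led by Prelp at 3.67 and Ogn at 3.44. Muscle genes were again lower, all 12 counted by at least 2-fold. Cell division genes had a median log2 ratio of -0.55, with none of 10 above the remaining spots. Of all counted genes in Col_nHA, 1.53% were at least 2-fold higher and 3.99% at least 2-fold lower. There, 41.9% lay above a ratio of 1, with a median log2 ratio of -0.06.

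**Figure D5:**
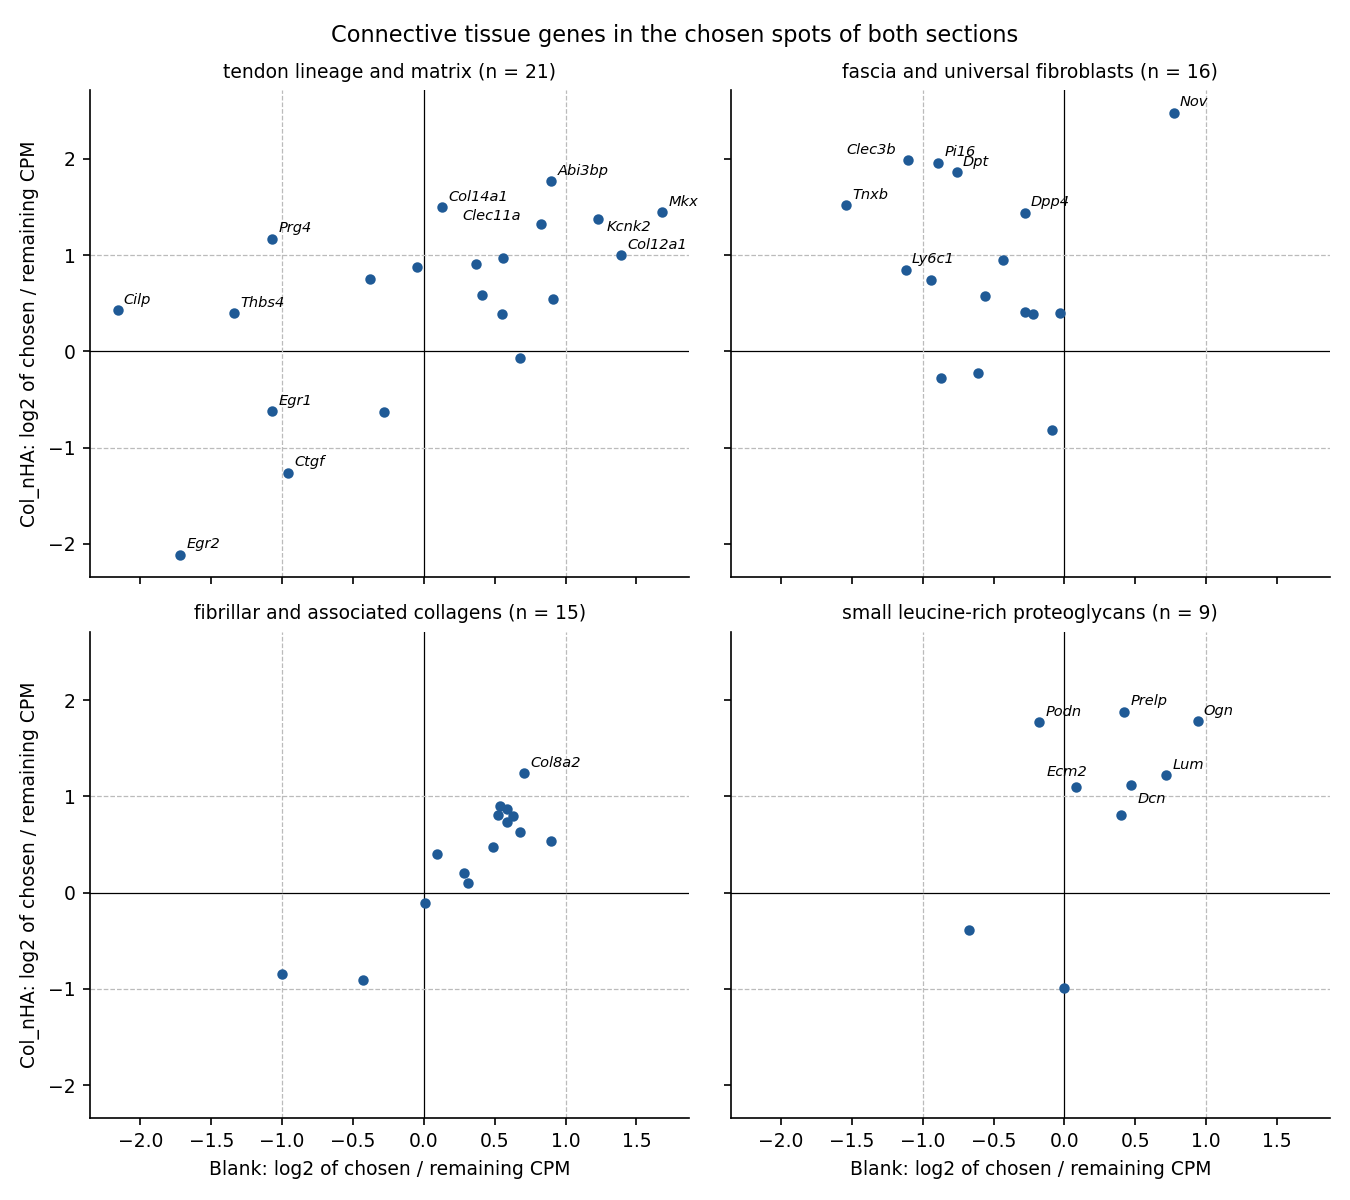
log2 ratio of chosen over remaining spots in Blank (horizontal) and Col_nHA (vertical) for the members of 4 lists that were counted in both sections, with dashed lines at 2-fold and names for genes past 2-fold in one or both sections. Fascia genes lie mostly left of 0 in Blank and above 0 in Col_nHA, and Mkx, Col12a1 and Kcnk2 lie at the upper right of the tendon panel.

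Set directly against each other, the chosen spots of Col_nHA had 216 of 9338 counted genes at least 2-fold higher than those of Blank (2.31%) and 35 at least 2-fold lower (0.375%). Spp1, osteopontin, reached 2536 CPM, against 843 CPM in the chosen Blank spots (3.01, 2.91 to 3.11), the matrix protease gene Mmp9 at 965 against 295 CPM (3.27), and Sfrp1 at 182 against 52.4 CPM (3.48). Mki67, a marker of cycling cells, stood at 44.6 and 19.7 CPM (2.26, 1.80 to 2.86). The remaining spots of the sections differed as well. Summed there, osteoblast and osteocyte genes, with Spp1, made 10093 CPM in Col_nHA and 2766 CPM in Blank. Osteoclast genes, with Mmp9, made 2938 and 1643 CPM, and cell division genes, with Mki67, 548 and 312 CPM. The Wnt modulators other than Sfrp2, with Sfrp1, made 285 and 332 CPM. The first 3 lists were thus higher in Col_nHA in the remaining spots as well. A list sum does not give the level of a single gene, so it does not show Sfrp1's own difference there. Of the matrix genes, Col1a1 was at 0.80, Lum at 0.99 and Bgn at 1.02 times the Blank level, nearer to 1 than the osteopontin and protease transcripts.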

How the data were processed

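The data are UMI counts per gene and barcode for 2 sections, 1 per group, deposited by the authors as unfiltered matrices of 31053 genes by 4992 barcodes. They were made with Space Ranger on mm10, per the submitters' processing notes (its version: not given in the sources used here), and the file headers name Cell Ranger 4. The labels call the samples fresh-frozen spatial transcriptomes but their extraction text describes a droplet single-cell library. No tissue image or spot positions were used.

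Spots above an Otsu threshold on log10 UMIs were kept and ranked as described. Doublets have no meaning for spots, and none were called. The members and all gene lists were chosen with earlier results of these data known. UMIs were summed over spots and divided by the group's total to give CPM, and ratios carry exact 95% intervals (Poisson, conditional binomial or Clopper-Pearson), which cover counting error only. Genes needed 10 CPM in one or both groups to be counted, and "2-fold" is a description of size, since 1 section per group allows no test. The naming rule took the ranking genes, Scx and Mkx, the 15 highest and 8 lowest ratios among genes of at least 50 CPM, the 2 most abundant and 2 most changed members of each connective tissue list, 1 of each kind from the other lists, and the 6 genes that led the chosen spots of a cluster. The text does not name every gene that this rule took, and the result for 1 of them is not reported here. Further genes, such as those compared inside cluster 1 and list members given as examples, were chosen after their values were seen. Clustering used scanpy 1.11.5 (2000 variable genes, 30 components, 15 neighbours, resolution 0.6, counts scaled to 10000 per spot), without the 7 ranking genes. TMM factors came from edgeR 4.0.16 under R 4.3.3, and the rest from Python 3.11.15 with numpy 2.4.6, pandas 2.3.3, scipy 1.17.1 and scikit-image 0.26.0. The ratio, interval and ranking code was tested on simulated data. Of the gene IDs, 30934 were found in the gene name table. Promoter windows are from a RefSeq table on GRCm38.p6, and no genome was used. The comparison inside cluster 1 and the one without cluster 13 were added after seeing the data.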

Additional observations from a re-analysis of the deposited data

How the results depend on the processing

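No paired analysis was possible because each group is 1 section. The genes at least 2-fold higher in the chosen Blank spots were 44 of 9831 counted. They became 73 of 9828 with 150 spots, 94 of 9745 with TMM scaling and 95 of 9745 with median-of-ratios scaling. With no CPM minimum they became 3036 of 19538, and with a minimum of 50 CPM 16 of 3336. At 50 CPM the share thus stayed near the reported 0.448%. The 756 lower genes became 2580 of 19538 with no minimum and 204 of 3336 at 50 CPM. They became 429 of 9547 without spots rich in other tissues and 68 of 9097 inside cluster 1. The 3 higher tendon genes became 6 under TMM, 6 under median-of-ratios scaling, 1 at 50 CPM and 1 inside cluster 1, and the 0 higher fascia genes became 1 with no minimum and 1 inside cluster 1. The 14 genes shared with Col_nHA, of 44 in Blank, became 34 of 73 with 150 spots and 7 of 16 at 50 CPM. Camp changed sign, to a log2 ratio of -2.39 with the mean rank of the 7 genes, -2.10 in the ranking without Sfrp2, -0.54 inside cluster 1 and -0.63 without cluster 13. Sostdc1 turned to 0.08 without spots rich in other tissues and 0.51 inside cluster 1, where Cma1 (0.23), Far2 (0.15), Mcpt4 (0.37) and Tnn (-0.21) also changed sign. The chosen spots of cluster 1 held only 8 UMIs of Camp and 10 of Cma1. Of 7 mast cell genes, Cma1 and Mcpt4 among them, 0 reached 10 CPM there. The values of Camp, Cma1 and Mcpt4 inside cluster 1 therefore have no direction. Other scalings moved the log2 ratios of the main comparison by 0.19, and this shift was not computed for subsets of spots. Values as near to 0 as those of Sostdc1 at 0.08 and Far2 are given no direction. The cause was not tested. The lower fascia genes, 4 as reported, ran from 10 (ranking without Sfrp2), 9 (150 spots) and 8 (mean rank) to 2 (both scalings, 600 spots, thinned ranking, ranking without Thbs2, mean of per-spot CPM, without spots rich in other tissues) and 1 (cluster 1). The 5 lower tendon genes ran from 7 (mean rank, rankings without Sfrp2 or Itgbl1) to 2 (both scalings, rankings without Tnmd or Thbs2, cluster 1). Of the 61 named genes past 2-fold, 59 to 61 kept their side under every alternative run except cluster 1 alone, where 55 did. Fewer stayed past 2-fold: 45 of 61 (15 of 25 higher genes) without spots rich in other tissues and 16 of 61 (8 of 25) inside cluster 1. Counts of 1 to 10 UMIs per gene limit what is said of Mkx, Scx and the BMP genes in single spots.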

Other observations

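Summed over the 16 chosen spots of cluster 13, transcripts of other sources were counted beside Tnmd. The neutrophil granule genes Ngp and Camp stood at 239 and 289 CPM there, against 2.60 and 3.72 CPM in the other chosen spots. The rest of the cluster held 2.35 CPM of Ngp and 0 UMIs of Camp. The levels in the 16 spots rest on 47 UMIs of Ngp and 57 of Camp, and their spread over single spots was not examined. Over all 300 chosen spots, the neutrophil list made up a median of 0.0055% of a spot's UMIs and 2.96% in the highest. A few spots may therefore hold most of these transcripts. The synaptic gene Snap25 was at 102 CPM and the pineal serotonin enzyme gene Tph1 at 117 CPM, both below the rest of the cluster, at 317 and 455.5 CPM. In cluster 7, Ostn, which encodes the secreted factor osteocrin, stood at 184 CPM in the chosen spots and 22.2 CPM in the rest of the cluster. Lyz2, the lysozyme of macrophages, was at 6307 CPM in the chosen spots of cluster 1 and 2615 CPM in those of cluster 2.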
